A study of Homo sapiens with 12 samples.

Results

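The genes described here are the receptors, ligands and targets of the Notch pathway, chosen by name: the receptors NOTCH1, NOTCH2 and NOTCH3, the ligands JAG1, JAG2 and DLL1, and the target genes HES1, HES4, HEY1 and HEY2. Of these 10 genes, 9 had a row in a count table of 20771 genes, and 8 were among the 16515 genes that passed a filter on low counts and were tested. DLL1 had a row but did not pass the filter, and the level of HEY2 was not analysed here. Poly(A) RNA was sequenced from EW8 and TC71, a pair of Ewing sarcoma cell lines grown in DMEM with 10% FBS, to ask which genes change when the ribonucleotide reductase subunit RRM1 is lost. Both lines, used as single-cell clones, depend on doxycycline for RRM1: a lentiviral copy with altered codons, which the guide RNA cannot target, is switched on by the drug, and their own gene was disrupted with CRISPR/Cas9. The 12 libraries form 4 groups of 3: EW8 and TC71 labelled 0 h, which are the cells kept in doxycycline, and EW8 and TC71 labelled 48 h, which are the cells without doxycycline for 48 hours. Each line is represented by a clone, so line and clone cannot be told apart, and loss of RRM1 cannot be told apart from removal of doxycycline because no library of unmodified cells given the same change of medium was included. No label states that replicates were separate cultures, so the p-values below measure only the spread between these libraries, which may be technical.

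Notch receptors are single-pass membrane proteins that are activated by ligands of the Jagged and Delta families on a neighbouring cell. Ligand binding exposes the receptor to an ADAM protease and then to gamma-secretase, which releases the intracellular domain. This domain enters the nucleus, joins the DNA-binding protein RBPJ and a Mastermind co-activator, and switches on genes of the HES and HEY families, which encode transcriptional repressors, and HES1 is a classic target with a pair of RBPJ motifs facing each other in its promoter.

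That arrangement is printed here because HES1 and HES4 were the members that more than doubled in EW8 cells. RefSeq promoters on GRCh38.p14, the 250 bases before each annotated start, were found for 8 of the 10 genes (not for HEY1 or DLL1), and they were searched on both strands for the RBPJ motif letters GTGGGAA, for the looser form GTGNGAA, which contains the former, and for the AP-1 motif letters TGANTCA. The 250 bases before HES1 (chr3:194135898-194136147, plus strand) follow 5′ to 3′, with the GTGNGAA match and the match that faces it on the other strand in capitals.
HES1 promoter: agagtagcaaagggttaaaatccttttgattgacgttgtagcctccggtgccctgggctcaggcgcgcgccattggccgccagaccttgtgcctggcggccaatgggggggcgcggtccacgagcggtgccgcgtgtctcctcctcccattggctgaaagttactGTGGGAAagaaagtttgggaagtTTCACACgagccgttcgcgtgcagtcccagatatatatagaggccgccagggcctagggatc
The paired stretch lies at chr3:194136063-194136092 in HES1 and at chr1:1000145-1000174, minus strand, in HES4, where GENCODE places a longer first exon over most of it.
HES1 pair: GTGGGAAagaaagtttgggaagtTTCACAC
HES4 pair: GTGGGAAagaatgcggagccgggTTCACAC
Both stretches are 30 bases long with 16 bases between the facing matches, and they begin 85 bases before the RefSeq start of HES1 and 77 bases before that of HES4. A facing pair of GTGNGAA with at most 20 bases between, a limit set after the HES1 letters had been seen, was found in 24 of 35116 RefSeq promoters (0.0683%). A single GTGNGAA was found in 3 of the 8 member promoters (HES1, HES4 and HEY2) and in 11.6% of all promoters, GTGGGAA in the same 3 and in 5.43% of all, and TGANTCA in 0 of the 8 and in 6.57% of all. These matches are a description of the letters in this window only.

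Counts per library summed to between 18468485 and 35698991 over all genes. The library TC71 48 h replicate 3 stood further from its fellow replicates than any other, with a chi-square per gene of 7.83 and 9.48 against them where the other replicate pairs lay between 2.05 and 5.12, and mitochondrial transcripts took 2.68% of its counts against 3.97% and 3.99% in the other libraries of its group. All 9 Ewing sarcoma marker genes on the list had a row, and their summed level was 2030 to 2529 CPM (TMM-scaled counts for a common library size) over the 12 libraries, of which CAV1 was the largest item at 1262 CPM in EW8 at 0 h. These markers moved both ways, 5 up and 3 down in each line, with FLI1 lower at 48 h by a log2 fold change of -0.72 in EW8 and -0.41 in TC71 and NR0B1 higher by 0.98 and 0.19, where 68.6% and 42.1% of all tested genes passed the test in either direction. Of 4 hematopoietic, 4 endothelial and 4 epithelial markers, 2, 1 and 1 had a row, and their summed levels reached at most 0.372, 0.207 and 1.60 CPM. Of 4 fibroblast markers, 3 had a row (COL1A1, PDGFRB and DCN), and their summed level was 38.8 to 43.4 CPM in EW8 at 0 h, 91.3 to 101 in EW8 at 48 h, 109 to 115 in TC71 at 0 h and 171 to 181 in TC71 at 48 h. This sum rose between the same groups as HES1, HES4 and HEY1, described next, and its part in their change was not tested. The RRM1 transcript itself was 7.37-fold higher at 48 h in EW8 (adjusted p = 3.37e-27) and also higher in TC71 (log2 fold change 0.65). These counts run against the loss of RRM1 that the labels imply, and whether reads of the transgene, whose codons were altered, were counted was not tested, so they do not check the labels, and 0 h and 48 h stand throughout for the libraries labelled so. They may include reads of RRM1-AS1, which shares 63 exon bases on the opposite strand.

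The targets HES1, HES4 and HEY1 rose in both lines, while NOTCH2 fell in both. At 48 h against 0 h in EW8, HES1 rose 2.40-fold and HES4 3.23-fold, JAG1 rose 1.93-fold, NOTCH3 and HEY1 rose by less, NOTCH2 fell, and NOTCH1 and JAG2 did not pass the test. A gene passes here when the adjusted p of edgeR's quasi-likelihood test is under 0.05, and is called when it also changes more than 2-fold. By that rule 2 of the 8 tested members were called higher in EW8, where 13.9% of all tested genes were, and 0 were called lower, where 3.35% of all were. With adjusted p alone, 5 members rose and 1 fell, 6 of 8, where 68.6% of all genes passed in either direction, so the share that moved was near the background. The median log2 fold change of the 8 was 0.60, against 0.03 for all tested genes.

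In the same comparison in TC71, 0 of the 8 members were called higher, where 3.26% of all tested genes were, and 0 lower, where 0.854% of all were. With adjusted p alone, HES1, HES4, HEY1, JAG1 and NOTCH1 rose, NOTCH2 and JAG2 fell, and NOTCH3 did not pass, which makes 7 of 8 where 42.1% of all genes passed. The median log2 fold change of the 8 was 0.26, against -0.00 for all tested genes. In these bulk libraries fewer expressing cells and less RNA per cell cannot be told apart.

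**Figure D1:**
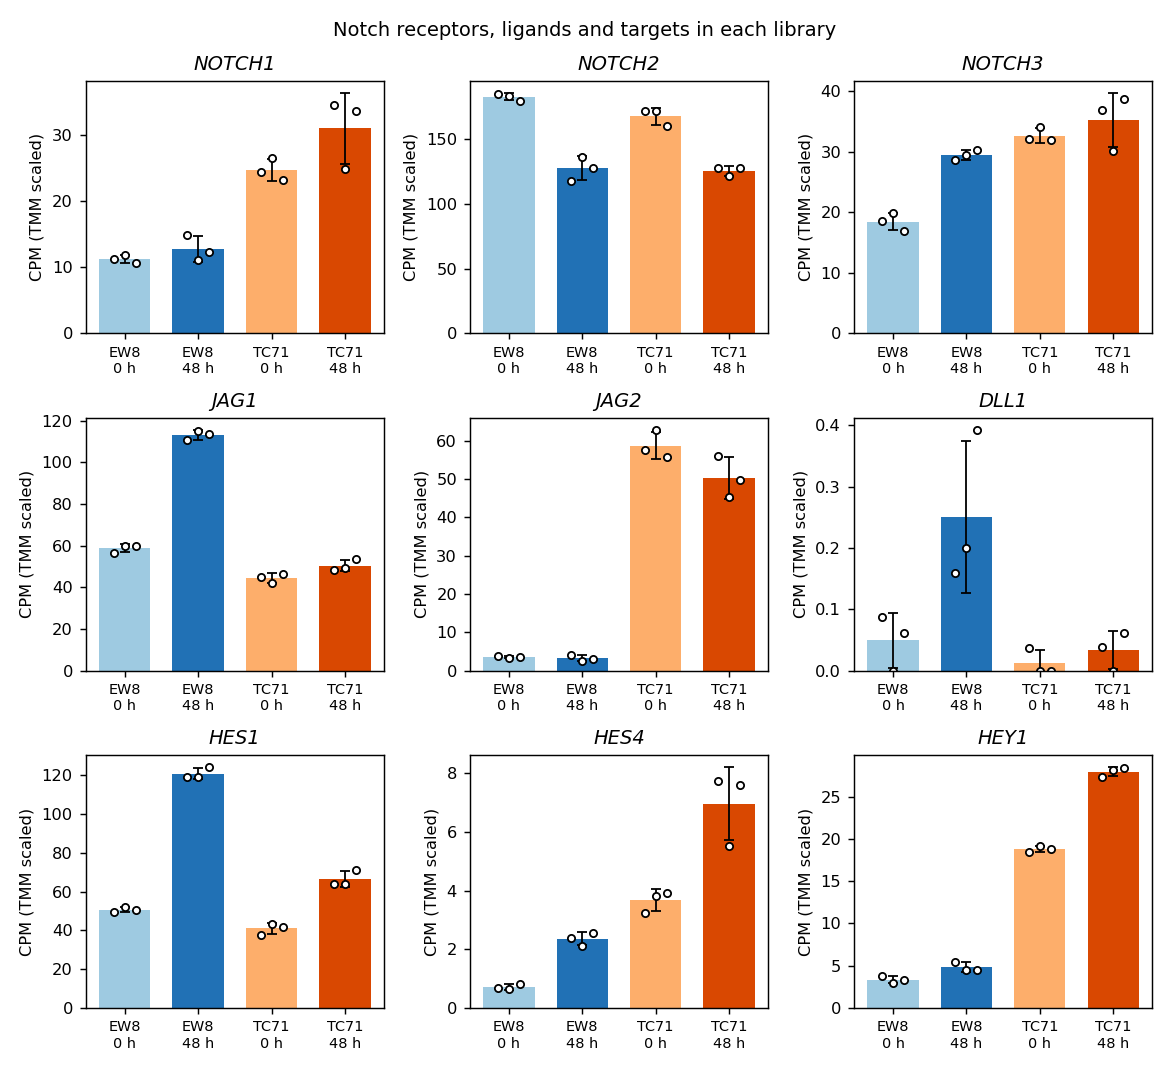
TMM-scaled CPM of the 9 members with a row in each of the 12 libraries: white points are libraries, bars the mean of 3 and error bars the SD, each panel with its own linear axis from 0. HES1, HES4 and HEY1 are higher in every 48 h library than in every 0 h library of the same line, NOTCH2 is lower, and JAG2 is below 5 CPM in every EW8 library.

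Among the receptors, NOTCH2 (chr1:119911553-120100779, minus strand, hg38 with GENCODE release 44, protein coding as are all 9 members) had the highest count of the receptors in all libraries. Its level in the EW8 libraries labelled 0 h was 185, 183 and 179 CPM, and in those labelled 48 h 118, 136 and 128 CPM. In TC71 it was 171, 171 and 159.9 CPM at 0 h and 127, 121 and 127 CPM at 48 h. The groups did not overlap in either line. NOTCH2 fell by 0.52 on the log2 scale in EW8 (SE 0.05, adjusted p = 5.25e-12) and by 0.42 in TC71 (SE 0.05, adjusted p = 3.77e-09), and the responses of the lines differed by a log2 value of -0.10 (SE 0.07, adjusted p = 0.208). NOTCH2 has near-identical partial copies in the genome, the NOTCH2NL genes, none of which had a row, so how reads were shared among them is uncertain.

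NOTCH3 (chr19:15159038-15200995, minus strand) is a receptor best known from vascular smooth muscle and pericytes. In EW8 it was at 18.6, 19.8 and 16.9 CPM at 0 h and at 28.6, 29.4 and 30.2 CPM at 48 h, and in TC71 at 32.0, 34.0 and 31.9 CPM at 0 h and at 36.8, 30.1 and 38.6 CPM at 48 h. All EW8 libraries at 48 h exceeded those at 0 h, while in TC71 replicate 2 at 48 h lay below all libraries at 0 h. The gene rose in EW8 by a log2 fold change of 0.69 (SE 0.08, adjusted p = 5.00e-09). In TC71 the value was 0.11 (SE 0.07, adjusted p = 0.209), which became 0.21 (adjusted p = 0.00860) without TC71 48 h replicate 2 and 0.04 (adjusted p = 0.736) without replicate 3. The mean in EW8 at 48 h was 29.4 ± 0.821 CPM, against 32.6 ± 1.21 in TC71 at 0 h (SD, n = 3). These groups did not overlap, and the difference between them was not tested.

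NOTCH1 (chr9:136494433-136546048, minus strand) had the fewest reads per length of these 3 receptors. Its levels in EW8 were 11.3, 11.8 and 10.7 CPM at 0 h and 14.9, 11.0 and 12.3 CPM at 48 h, and the groups overlapped. In TC71 they were 24.4, 26.6 and 23.3 CPM at 0 h and 34.5, 24.8 and 33.6 CPM at 48 h, where replicate 2 at 48 h lay inside the range at 0 h. The log2 fold change was 0.19 in EW8 (SE 0.14, adjusted p = 0.268) and 0.33 in TC71 (SE 0.11, adjusted p = 0.0264). The TC71 value missed the threshold when any of 7 libraries was left out (EW8 0 h replicates 1, 2 and 3, TC71 0 h replicates 1 and 3, TC71 48 h replicates 1 and 3), with an adjusted p of up to 0.0957.

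The proportions of the receptors differed between the times. To compare genes, CPM was divided by the exon length in kilobases, and the share of each receptor in the sum of NOTCH1, NOTCH2 and NOTCH3 was taken per library. In EW8 the share of NOTCH2 was 79.2% ± 0.968 at 0 h and 64.6% ± 2.30 at 48 h, and that of NOTCH3 was 14.2% ± 0.797 and 26.7% ± 0.788 (SD, n = 3). In TC71 the share of NOTCH2 was 64.7% ± 0.823 at 0 h and 54.8% ± 3.0 at 48 h, and that of NOTCH1 was 12.8% ± 0.446 and 18.0% ± 1.76. No 48 h library overlapped the 0 h libraries of its line in any of these 4 shares. EW8 at 48 h had nearly the NOTCH2 share of TC71 at 0 h. The summed level of the 3 receptors was 13.8 ± 0.341 CPM per kilobase in EW8 at 0 h and 11.7 ± 0.448 at 48 h, with no overlap, and 15.4 ± 0.595 and 13.7 ± 1.11 in TC71, also with no overlap.

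JAG1 (chr20:10637684-10673999, minus strand), a Jagged ligand, was the member whose response differed most clearly between the lines. In EW8 it was at 56.4, 59.8 and 59.7 CPM at 0 h and at 111, 115 and 114 CPM at 48 h. In TC71 it was at 44.7, 42.0 and 46.5 CPM at 0 h and at 48.4, 49.1 and 53.5 CPM at 48 h. The groups did not overlap in either line, but the gap was wide in EW8 and narrow in TC71. The log2 fold change was 0.95 in EW8 (SE 0.05, adjusted p = 5.72e-18), and 0.18 in TC71 (SE 0.05, adjusted p = 0.00536), where it lost the threshold without TC71 0 h replicate 2 (adjusted p = 0.0518) or TC71 48 h replicate 3 (adjusted p = 0.0669). The EW8 rise was just short of the 2-fold limit, and with libraries scaled by total counts it was past it (1.07), which made JAG1 called and 3 of the 8 members called in EW8. Under that scaling 2661 of 16515 genes were called higher in EW8, against 2294 in the main fit. It also moved the median log2 fold change of all tested genes from 0.03 to 0.16.

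JAG2 (chr14:105140982-105168824, minus strand), the other Jagged ligand, separated the lines rather than the times. Its EW8 levels were 3.81, 3.21 and 3.51 CPM at 0 h and 4.15, 2.51 and 3.08 CPM at 48 h, which overlapped. Its TC71 levels were 57.6, 62.7 and 55.7 CPM at 0 h and 56.0, 45.2 and 49.6 CPM at 48 h, which also overlapped in 1 library. The log2 fold change was -0.13 in EW8 (SE 0.17, adjusted p = 0.528), a value whose sign turned when EW8 48 h replicate 2 was left out (0.03). In TC71 it was -0.22 (SE 0.07, adjusted p = 0.0143), and it lost the threshold without TC71 0 h replicate 2 (adjusted p = 0.0669) or TC71 48 h replicate 2 (adjusted p = 0.0569) and when libraries were scaled by total counts (adjusted p = 0.0756).

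DLL1 (chr6:170282206-170306565, minus strand), a Delta ligand, was at the limit of what these libraries can measure. It had 2, 0 and 2 counts in the EW8 libraries at 0 h and 3, 4 and 8 at 48 h, and 1, 0 and 0 in TC71 at 0 h and 1, 0 and 2 at 48 h. All libraries but a pair in EW8 at 48 h held 3 counts or fewer, so no fold is given. With no filter on low counts its adjusted p was 0.0205 in EW8 and 0.603 in TC71. DLL1 shares 370 exon bases with FAM120B on the opposite strand, JAG1 shares 306 with a non-coding gene on the opposite strand, and JAG2 shares 469 with a non-coding gene on its own strand. The strand setting of the counting is not given in the sources used here, so reads in these bases may not all belong to the ligands.

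The ligand make-up differed between the lines more than between the times. Per length, JAG1 was 91.8% ± 1.01 of the summed JAG1, JAG2 and DLL1 level in EW8 at 0 h and 95.5% ± 1.01 at 48 h, and in TC71 34.2% ± 2.50 and 40.9% ± 3.11 (SD, n = 3), the rest being nearly all JAG2. The summed ligand level in EW8 was 6.87 ± 0.161 CPM per kilobase at 0 h and 12.7 ± 0.132 at 48 h, and the groups did not overlap. In TC71 it was 14.0 ± 0.324 at 0 h and 13.3 ± 0.835 at 48 h, where they did. EW8 at 48 h thus had a summed ligand level inside the range of TC71 at 48 h and below that at 0 h, with a larger share of JAG1. These comparisons across lines were not tested.

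**Figure D2:**
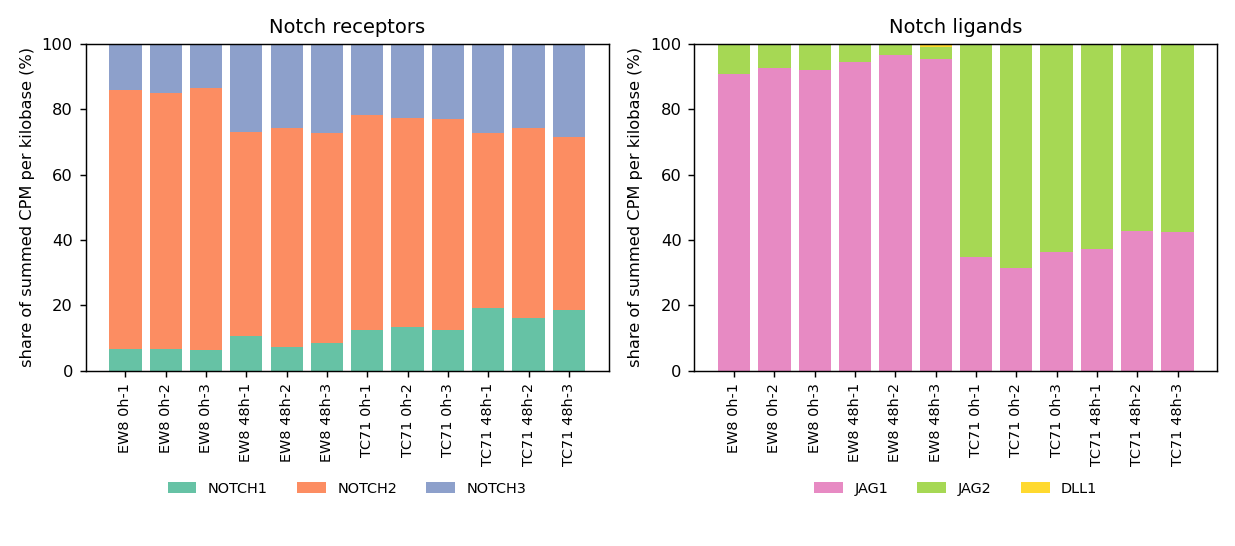
Share (%) of each receptor in the summed receptor level and of each ligand in the summed ligand level, in CPM per kilobase of exon, 1 stacked bar per library. NOTCH2 takes a smaller share at 48 h than at 0 h in both lines, and JAG1 makes up over 90% of the ligand level in every EW8 library but 31.5% to 42.8% in the TC71 libraries.

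HES1 (chr3:194136148-194138732, plus strand) encodes a repressor of the basic helix-loop-helix type and had the highest level per length of all members in every group. In EW8 it was at 49.2, 51.8 and 50.5 CPM at 0 h and at 119, 119 and 124 CPM at 48 h. In TC71 it was at 37.8, 43.3 and 41.7 CPM at 0 h and at 63.7, 64.2 and 71.3 CPM at 48 h. Every 48 h library exceeded every 0 h library of its line. The log2 fold change was 1.26 in EW8 (SE 0.05, adjusted p = 9.92e-21) and 0.70 in TC71 (SE 0.05, adjusted p = 1.50e-12), a 1.63-fold rise. The gene passed the test in both lines with any single library left out.

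HES4 (chr1:998962-1000172, minus strand), a related repressor with the same facing matches before its RefSeq start, was much scarcer. The EW8 libraries labelled 0 h held 15, 11 and 27 of its counts and those labelled 48 h held 45, 42 and 52, which is 0.657, 0.630 and 0.824 CPM against 2.39, 2.11 and 2.54 CPM. In TC71 it was at 3.24, 3.82 and 3.93 CPM at 0 h and at 7.75, 5.52 and 7.61 CPM at 48 h. The groups did not overlap in either line. The log2 fold change was 1.69 in EW8 (SE 0.24, adjusted p = 1.24e-07) and 0.93 in TC71 (SE 0.13, adjusted p = 6.77e-07), a 1.91-fold rise. In TC71 the fold passed 2 only when TC71 48 h replicate 2 was left out (log2 fold change 1.07), and then HES4 was the 1 member called there. In that fit 540 of 16902 genes were called higher in TC71 and 185 lower.

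HEY1, a member of the HEY family of repressors, rose in both lines. In EW8 it was at 3.72, 2.98 and 3.29 CPM at 0 h and at 5.48, 4.46 and 4.50 CPM at 48 h, and in TC71 at 18.4, 19.1 and 18.9 CPM at 0 h and at 27.4, 28.2 and 28.4 CPM at 48 h. No groups overlapped, and the TC71 libraries were close to each other within each time. The rise was 1.43-fold in EW8 (log2 fold change 0.52, SE 0.13, adjusted p = 4.79e-04) and 1.49-fold in TC71 (0.57, SE 0.07, adjusted p = 3.05e-08).

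**Figure D3:**
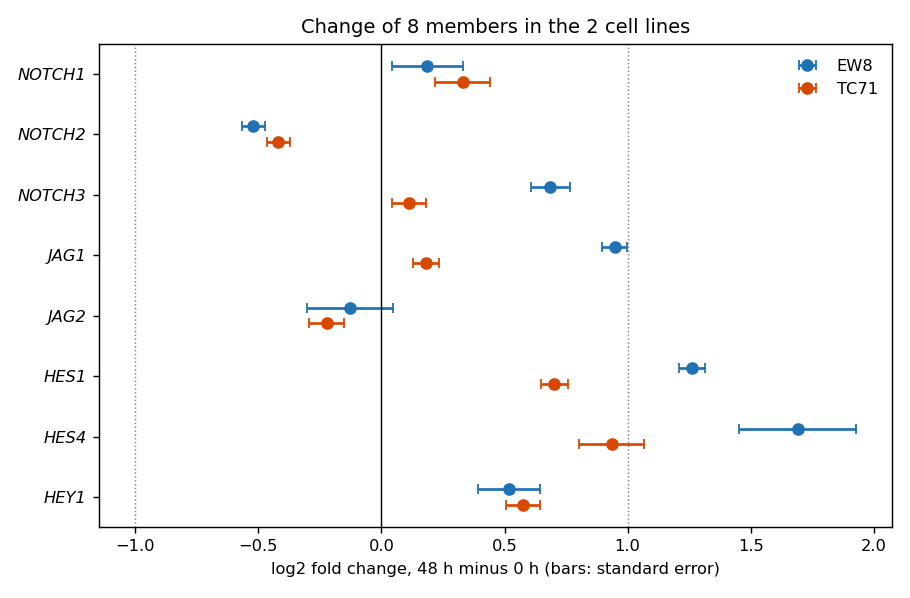
Fitted log2 fold change, 48 h minus 0 h, of the 8 tested members in EW8 and TC71, with bars for 1 standard error and dotted lines at a 2-fold change. The EW8 points of NOTCH3, JAG1, HES1 and HES4 lie to the right of the TC71 points, while for the other 4 genes the difference between the lines did not pass the test.

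Whether the lines responded differently was tested with the interaction term, the EW8 log2 fold change minus the TC71 one. It was 0.77 for JAG1 (SE 0.07, adjusted p = 1.41e-10), 0.57 for NOTCH3 (SE 0.11, adjusted p = 3.95e-05), 0.56 for HES1 (SE 0.08, adjusted p = 2.02e-07) and 0.76 for HES4 (SE 0.28, adjusted p = 0.0246). These 4 members rose more in EW8, and the other 4 did not pass: NOTCH1 at -0.14 (SE 0.18, adjusted p = 0.548), NOTCH2 at -0.10 as above, JAG2 at 0.09 (SE 0.19, adjusted p = 0.713) and HEY1 at -0.06 (SE 0.15, adjusted p = 0.782). That 4 of 8 compares with 48.1% of all tested genes, and 0 members differed by more than 2-fold, where 7.28% of all genes were called higher and 0.981% lower. The HES4 difference lost the threshold without EW8 0 h replicate 1, EW8 0 h replicate 2, EW8 48 h replicate 3 or TC71 0 h replicate 3, with an adjusted p of 0.0151 to 0.0779 over all alternatives, and that of NOTCH1 gained it without TC71 48 h replicate 2 (adjusted p = 0.0492).

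At 0 h the lines already had different Notch genes. Relative to TC71, EW8 had JAG2 16.6-fold lower (log2 difference -4.05, SE 0.11, adjusted p = 2.23e-21), HEY1 5.60-fold lower (-2.49, SE 0.10, adjusted p = 1.36e-21), HES4 5.01-fold lower (-2.33, SE 0.21, adjusted p = 8.86e-12) and NOTCH1 2.21-fold lower (-1.14, SE 0.13, adjusted p = 1.07e-06). These 4 of 8 were called lower in EW8, where 11.9% of all tested genes were, and 0 were called higher, where 4.77% were. NOTCH3 was 1.78-fold lower (log2 difference -0.83). JAG1 was higher by a log2 difference of 0.40 (adjusted p = 4.04e-08) and HES1 by 0.31 (adjusted p = 1.50e-05). NOTCH2 was higher by 0.12 (adjusted p = 0.0171), a difference that turned to -0.01 when libraries were scaled by total counts. All 8 passed with adjusted p alone, where 65.7% of all genes did. Among the 3 tested member targets, HEY1 and HES4 were lower in EW8 and HES1 was higher.

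HES1 led the order of level per length in every group. In EW8 at 0 h the means in CPM per kilobase were 24.5 for HES1, 10.9 for NOTCH2, 6.31 for JAG1, 1.96 for NOTCH3, 0.898 for NOTCH1, 0.629 for HES4, 0.607 for HEY1, 0.549 for JAG2 and 0.0130 for DLL1, and the neighbours HES4, HEY1 and JAG2 overlapped between libraries. At 48 h JAG1 at 12.2 stood above NOTCH2 at 7.59 and HES4 at 2.10 above NOTCH1 at 1.02, with no overlap in either pair, while NOTCH1 and HEY1 (0.877) overlapped. In TC71 at 0 h the order was HES1 at 19.9, NOTCH2 at 10.0 and JAG2 at 9.18, which overlapped, then JAG1 at 4.77, then NOTCH3 at 3.47, HEY1 at 3.43 and HES4 at 3.28, which overlapped, and NOTCH1 at 1.97. In TC71 at 48 h HES1 stood at 32.2, followed by the overlapping JAG2 (7.86) and NOTCH2 (7.48), HES4 (6.22), which overlapped both JAG1 (5.42) and HEY1 (5.10), and then NOTCH3 (3.74) and NOTCH1 (2.47). The annotated exons of HEY1 together span 5487 bases, the whole of its gene, so its level per length may be too low. Its place in these orders and its overlaps with neighbours rest on that length.

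The rest of the pathway was followed through a list of 62 further genes, of which 57 had a row and 55 were tested. In EW8 5 were called higher and 2 lower, and with adjusted p alone 29 rose, 15 fell and 11 did not pass, with a median log2 fold change of 0.19. Over all tested genes 13.9% were called higher, 3.35% lower and 68.6% passed, so the called share was not above the background. The 5 genes called higher were NOTCH4, CIR1, TLE4, DLL4 and MAML2, of which DLL4 and MAML2 were tested only because of 48 h libraries where they are high, which leaves 3. In TC71 3 were called higher and 0 lower, 16 rose, 10 fell and 29 did not pass, with a median of 0.01. There 3.26% of all genes were called higher, 0.854% lower and 42.1% passed. Of those 3, DLL4 and MAML2 again do not count, which leaves TLE4 alone. Under a filter that keeps a gene only if no library has fewer than 10 counts of it, 1 gene was called higher and 2 lower in EW8 and 1 higher in TC71, where 1204, 306 and 197 of 13210 genes were. Without TC71 48 h replicate 1, 5 were called in TC71, where 544 of 16910 genes were called higher and 187 lower. The counts by role below are to be read against the same 68.6% in EW8 and 42.1% in TC71. The remaining receptor, NOTCH4, had 20, 6 and 14 counts in EW8 at 0 h and 38, 36 and 43 at 48 h, and its rise of 1.84 on the log2 scale (SE 0.26, adjusted p = 1.82e-07) was called. In TC71 NOTCH4 rose by 0.49 (adjusted p = 0.0238), and the difference of 1.35 between the lines was called (adjusted p = 8.03e-04), as was that of -1.24 for MAML3 (adjusted p = 1.18e-05). DLL4, a Delta ligand of endothelial cells, had 0, 6 and 0 counts in EW8 at 0 h and 24, 12 and 9 at 48 h (adjusted p = 5.12e-04), and 8, 7 and 13 against 31, 32 and 34 in TC71 (adjusted p = 0.00759). No group at 0 h would have taken DLL4 through the filter on low counts, so no size is given and its calls are not read as results.

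Among the nuclear partners, the Mastermind co-activators did not move together. MAML1, at 109 ± 3.74 CPM in EW8 at 0 h (SD, n = 3), had a log2 fold change of 0.10 (edgeR adjusted p = 0.0418) in EW8 and -0.07 (adjusted p = 0.206) in TC71. MAML3 went from 73, 52 and 96 counts at 0 h to 18, 17 and 20 at 48 h in EW8 (log2 fold change -1.70, SE 0.19, adjusted p = 6.07e-10) and fell by 0.46 in TC71 (adjusted p = 4.00e-04). MAML2 had 5, 6 and 9 counts in EW8 at 0 h and 21, 10 and 11 at 48 h, and 4, 3 and 0 counts in TC71 at 0 h and 10, 11 and 11 at 48 h. Its adjusted p was 0.00527 and 0.00858, but it was tested only because the EW8 libraries at 48 h, where it is high, passed the filter on low counts, so no size is given and the calls are not read as results. For RBPJ itself the log2 fold change was -0.13 (adjusted p = 0.0161) in EW8 and -0.07 (adjusted p = 0.238) in TC71. Of the 12 tested co-repressors, 5 rose and 6 fell in EW8, where 68.6% of all genes passed, and the Groucho-family TLE4 rose by 1.56 in EW8 (SE 0.14, adjusted p = 4.78e-12) and 1.11 in TC71 (adjusted p = 1.86e-07), called in both. CIR1, an RBPJ co-repressor, rose by 1.01 in EW8 (SE 0.06, adjusted p = 6.81e-16), a 2.01-fold change that only just passed the limit for a call.

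Of the tested genes that cleave, modify or turn over the receptors, 0 were called in either line, where 13.9% of all genes were called higher and 3.35% lower in EW8 and 3.26% and 0.854% in TC71. Of 9 proteases and gamma-secretase subunits, 4 rose and 3 fell in EW8 (68.6% of all genes passed), among them ADAM17 at 0.83 (adjusted p = 7.97e-16) and ADAM10 at -0.34 (adjusted p = 9.18e-08), the sheddases that act before gamma-secretase. LFNG, a glycosyltransferase that alters ligand preference, rose in both lines, by 0.82 in EW8 (adjusted p = 3.61e-05) and by as much as 0.93 in TC71 (adjusted p = 1.08e-05). Of 13 turnover and endocytosis genes, 10 rose and 1 (NUMBL) fell in EW8, including DTX2 at 0.88 and MIB2 at 0.90, where in TC71 3 rose, 1 fell and 9 did not pass, against 68.6% and 42.1% of all genes that passed in the respective line.

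The other targets on the list did not all follow HES1. HES7, a target best known from the segmentation clock, went from 59, 40 and 103 counts in EW8 at 0 h to 22, 22 and 15 at 48 h and fell by 1.45 on the log2 scale (SE 0.22, adjusted p = 5.03e-07), and it fell by 0.90 in TC71 (adjusted p = 1.03e-05). For HES6 the EW8 rise was 0.49 (adjusted p = 3.66e-06) and the TC71 rise was 0.31 (adjusted p = 0.00377). NRARP, a target that dampens Notch signalling, rose by 0.38 (adjusted p = 0.0177) and 0.41 (adjusted p = 4.06e-05). HEYL had values of -0.03 (adjusted p = 0.829) and -0.05 (adjusted p = 0.630). Together with the members, 5 of the 7 tested target genes rose and 1 fell in each line, where 68.6% of all genes passed in EW8 and 42.1% in TC71.

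**Figure D4:**
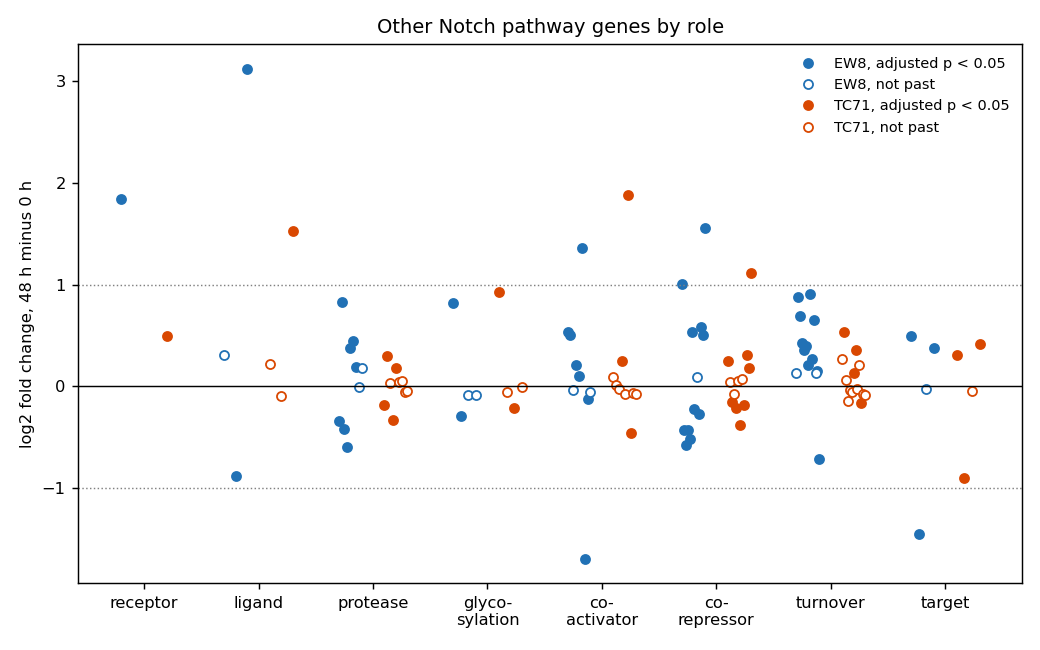
Fitted log2 fold change, 48 h minus 0 h, of the 55 other tested pathway genes by role, EW8 in blue and TC71 in orange, filled where the adjusted p is under 0.05, with dotted lines at a 2-fold change. The sizes of DLL4 and MAML2 are not firm. In EW8 7 filled points lie past the dotted lines, 5 above and 2 below, and in TC71 3 lie above.

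By the correlation of log2 CPM over the 12 libraries among 12518 genes, the gene most like each member was CYB561A3 for NOTCH1 (r = 0.993), KIF20A for NOTCH2 (r = 0.983), HLA-B for NOTCH3 (r = 0.986), OSGEP for JAG1 (r = 0.996), ATP5IF1 for JAG2 (r = 0.998), TRIM26 for HES1 (r = 0.998), TMEM98 for HES4 (r = 0.993) and ENG for HEY1 (r = 0.996). The libraries fall into 4 groups, so each r mostly describes which genes had the same order of 4 group means, and the best of so many genes is high by construction.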

How the data were processed

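RNA was extracted with an RNeasy Plus Mini kit and made into poly(A) libraries with a TruSeq Stranded mRNA protocol. The submitters' processing notes name FastQC, the aligner STAR and the build hg38. The counting tool, its strand setting and the annotation are not given in the sources used here. The table deposited by the authors holds raw counts per gene, whole numbers without normalization, in 1 column per library, and its smallest sum over the 12 libraries is 21, so genes with lower sums had been left out.

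Counts were tested with edgeR 4.0.16 (limma 3.58.1, R 4.3.3): a filterByExpr filter given the 4 groups (at least 10 counts, 15 in total), TMM scaling, 1 robust quasi-likelihood fit of all 12 libraries, and Benjamini-Hochberg adjustment over 16515 genes for each of 4 contrasts (48 h against 0 h in each line, their difference, and EW8 against TC71 at 0 h). All adjusted p-values come from that fit unless an alternative is named. Standard errors are the size of the log2 fold change over the root of F. CPM are TMM-scaled, and values per kilobase use the union of exons in GENCODE release 44. The fit was tested on simulated data. A level of 3 counts or fewer was treated as not measurable.

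All members were named, other pathway genes where called in either line or as examples of their role, the latter chosen after their values were seen. The members, although taken by name, and the lists were chosen with earlier results of these data known. MFNG, DTX1, HES2, HES3 and HES5 were not analysed here, and DLK1 and TLE1 did not pass the filter. Alternatives were DESeq2 1.42.0 (its size factors and its Wald test), scaling by total counts, other filters, each line alone, a replicate block and leaving out each library.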

Additional observations from a re-analysis of the deposited data

Results flagged for a closer look

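The response to 48 h differed between EW8 and TC71 for 4 members of 8 by the test of the difference itself, in edgeR, which is about the background, since 48.1% of all tested genes passed it. The EW8 log2 fold change exceeded that of TC71 by 0.57 for NOTCH3 (adjusted p = 3.95e-05), by 0.77 for JAG1 (adjusted p = 1.41e-10), by 0.56 for HES1 (adjusted p = 2.02e-07) and by 0.76 for HES4 (adjusted p = 0.0246). NOTCH3, JAG1 and HES1 kept an adjusted p under 0.05 under every alternative, up to 9.59e-04, 1.47e-08 and 4.21e-06, and HES4 did not, up to 0.0779. All 3 EW8 libraries at 48 h lay above all 3 at 0 h for each of these 4 genes, while in TC71 the groups overlapped for NOTCH3. How many of all tested genes were separated in this way was not counted, so the separation does not set these members apart. The library TC71 48 h replicate 3 stood apart from its group, and without it the differences were 0.65, 0.81, 0.61 and 0.83. Over all alternatives they ran from 0.48 to 0.65 for NOTCH3, 0.72 to 0.84 for JAG1, 0.52 to 0.63 for HES1 and 0.62 to 0.90 for HES4.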

How the results depend on the processing

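Over 584 combinations of member, contrast and alternative, 560 kept direction and side of the threshold, 18 lost it, 2 gained it and 4 changed sign. The sign changes were JAG2 in EW8 (-0.332 to 0.0272 with 1 library left out, the positive value without EW8 48 h replicate 2), the JAG2 difference between lines (-0.11 to 0.25 with 1 left out), and, with total-count scaling, the HEY1 difference between lines (0.0204) and NOTCH2 at 0 h between lines (-0.00949). That scaling moved the median of all genes from 0.03 to 0.16 in EW8, from -0.01 to -0.14 between lines at 0 h and from 0.04 to 0.12 in the difference of responses. With adjusted p alone, 6 members passed in EW8, 7 in TC71, 4 in the difference and 8 between lines at 0 h, and 44, 26, 27 and 43 of 55 other pathway genes, where 68.6%, 42.1%, 48.1% and 65.7% of all genes passed. With at least 10 counts in every library, 3, 1, 1 and 7 other pathway genes were called, and the genes called higher and lower fell from 2294 and 554 to 1204 and 306 in EW8, from 539 and 141 to 197 and 36 in TC71, from 1202 and 162 to 634 and 98 in the difference and from 787 and 1964 to 389 and 979 at 0 h. Leaving out 1 library gave 0 to 1 called members in TC71 and 3 to 5 other pathway genes there (5 without TC71 48 h replicate 1). Over the same fits 525 to 571 genes were called higher in TC71 and 109 to 187 lower, of 16891 to 16963 tested. The replicate numbers do not pair the libraries (correlations of -0.074, -0.106 and -0.0079 in EW8 and -0.0738, -0.162 and -0.179 in TC71), and with a replicate block 2 members were called in EW8 and 0 in TC71. Under that block 2277 of 16515 genes were called higher and 556 lower in EW8, and 507 and 124 in TC71. No library correlated with its own number as the closest in either line. Depth limits DLL1, MAML2, DLL4 and, in EW8 at 0 h, HES4 and NOTCH4. The cause of these changes was not tested.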

Other observations

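Beside HES1 and HES4, 6 tested genes had a facing pair of GTGNGAA with at most 20 bases between in the 250 bases before their RefSeq start. In EW8, SLC30A3, a zinc transporter, rose by 1.22 on the log2 scale (adjusted p = 1.60e-13), TRIM5, an antiviral restriction factor, by 0.75 (adjusted p = 0.00209) and RPGRIP1, a ciliary protein, by 0.71 (adjusted p = 7.46e-04), while MGA (-0.20, adjusted p = 4.38e-04) and RRP7A (-0.16, adjusted p = 0.00746) fell and FHL1 did not pass (-0.08, adjusted p = 0.203). In TC71, SLC30A3 did not pass (0.27, adjusted p = 0.143), and RRP7A did not (-0.09, adjusted p = 0.198), while TRIM5 rose by 0.32 (adjusted p = 0.0154), RPGRIP1 by 0.47 (adjusted p = 0.0402) and FHL1 by 0.19 (adjusted p = 0.00499), and MGA fell by 0.19 (adjusted p = 0.00126). The facing matches are 16 bases apart in HES1, HES4 and ITIH4, of which ITIH4 was not tested. The search limit was set after the HES1 letters were seen, and whether the pair bears on the levels was not tested.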
